A study of Mus musculus with 12 samples.

Results

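The expression of 10 immediate early genes was examined in the mouse colon carcinoma line MC38, cultured as a monolayer, during treatment with the MEK inhibitor GDC-0623. The genes were listed by name, with earlier results of these data known: Egr1, Egr2 and Egr3, the AP-1 subunit genes Fos, Fosb, Fosl1, Jun and Junb, and the immediate early response genes Ier2 and Ier3. All 10 were measured among the 18193 genes that had a probe set with a single gene symbol, and together they had 14 probe sets. There were 4 groups of 3 arrays. Cells received 100 nM GDC-0623 or, as the control, DMSO at the same dilution, and RNA of each treatment was taken after 24 h and after 72 h. All groups were the same unmodified line, so every value describes 1 cell line, and the labels call the 3 arrays of a group biological replicates. The comparisons ask how these genes respond to GDC-0623 early and late, and how they move with time in culture.

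Immediate early genes are transcribed within minutes of a stimulus and without new protein synthesis. In the pathway studied here, growth factor receptors and RAS activate RAF, RAF activates MEK and MEK activates ERK. ERK then phosphorylates ternary complex factors such as Elk1, which sit with serum response factor (SRF) on CArG boxes in promoters. Egr1, Egr2 and Egr3 encode zinc finger transcription factors. The FOS and JUN family proteins pair through leucine zippers into AP-1, which binds the sequence TGANTCA, and JUN genes also respond to the stress kinases JNK and p38. Ier2 encodes a small nuclear protein, and Ier3 a regulator of survival that is not a classical DNA-binding factor.

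Values are log2 expression values from robust multichip averaging (RMA) of Affymetrix mouse arrays. They carry no detection call, and values of about 3 to 5 lie in the range of background, so a gene that is dim in a group may have its change understated. Array medians lay between 4.63 and 4.70. GDC-0623 replicate 1 at 72 h stood apart on the first principal component (77.4, against 44.8 and 49.8 for the other two), which held 58.6% of the variance, and the 72 h values of Fos, Fosb and Junb are given without it too. Of 8 epithelial marker genes, Epcam, Cdh1, the keratins Krt8, Krt18, Krt19 and Krt20, Cdx2 and Vil1, no group mean reached 6 (2.61 to 5.62), whereas all 6 mesenchymal markers lay above it (8.12 to 13.77). The markers that define colon epithelium were thus near the background range in this line. None of 5 endothelial markers reached 6 in any group, and of 6 leukocyte markers only Cd68 did, at 6.26 in 72 h DMSO.

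RefSeq promoter windows of build GRCm38.p6, which run from 250 bases before to 50 bases after an annotated start, were used for 6 of the 10 genes, namely Egr2, Fos, Fosb, Jun, Junb and Ier3. Stretches upstream of a start are shown for 3 of them as examples that held motifs, with capitals marking the motif letters. Those of Fos and Jun adjoin the start, and that of Egr2 runs from 72 to 43 bases before 1 of its 5 annotated starts. The window of Ier3 and 1 of the 5 Egr2 windows held 0 of the motifs searched. Sequence farther than 250 bases before a start was not searched, so an element lying there would be missed.
Fos, chr12:85473770-85473889, plus strand: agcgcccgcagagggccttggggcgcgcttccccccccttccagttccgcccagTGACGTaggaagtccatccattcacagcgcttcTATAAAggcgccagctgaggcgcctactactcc
Jun, chr4:95052223-95052342, minus strand: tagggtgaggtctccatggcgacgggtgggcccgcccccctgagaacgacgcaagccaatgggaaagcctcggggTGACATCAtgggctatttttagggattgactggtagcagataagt
Egr2, chr10:67537797-67537826, plus strand: CCATATATGGgcagcgACGTCAcgggtatt

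Motifs were searched on both strands of every window. In the Egr2 stretch the first capitals are a CArG box, 72, 73 or 133 bases before the start in 3 of the 5 Egr2 windows, and the second are TGACGT read on the other strand, the core letters of a cyclic AMP response element. The Fos stretch held TGACGT 66 bases and TATAAA, the core promoter element bound by the basal factor TBP, 33 bases before the start. In the Jun stretch the capitals match TGANNTCA, the AP-1-like element, 45 bases before the start. Among all 32817 windows of the same length, 1.63% held a CArG box, 7.51% held TGACGT, 13.6% held TATAAA and 14.1% held TGANNTCA. TGANTCA itself, which 7.81% of all windows held, was in none of the windows of these 6 genes. The EGR motif GCGNGGGCG was in the Fosb window, 50 bases before the start, and in 5.56% of all windows. CCGGAA, an ETS core motif, was found in another of the 5 Egr2 windows and in 14.9% of all windows. That Egr2 window also held a different CArG box, CCTTTTTTGG, 72 bases before its start. A TGANNTCA whose middle letters are CG also holds TGACGT, so these 2 motifs can overlap. These matches describe the letters of the windows only.

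Under GDC-0623 the genes did not move as a group: Egr1, Fosl1 and Ier2 were called lower at both times, as was the main probe set of Egr2, whose second probe set was called only at 72 h, and Ier3 was called lower at 24 h. No change of Fosb, Jun, Junb or the main Egr3 probe set passed the test. Fos did not pass either, but was called higher at both times with the replicate number as a block (adjusted p = 0.0175 at 24 h and 0.009 at 72 h). At 24 h, 5 of 10 genes were called lower and none higher by limma at an adjusted p below 0.05, where 8.23% of all genes were called lower and 13.3% higher. The test at 72 h called 4 of 10 lower and none higher, with 12.4% of all genes called lower and 13.8% higher. At an unadjusted p below 0.05 the numbers were 6 at 24 h, Fos being the one on the high side, and 4 at 72 h. The median log2 fold change of the 10 genes was −0.23 at 24 h and −0.29 at 72 h, against −0.03 over all genes at each time. No p was computed for the list as a whole.

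**Figure D1:**
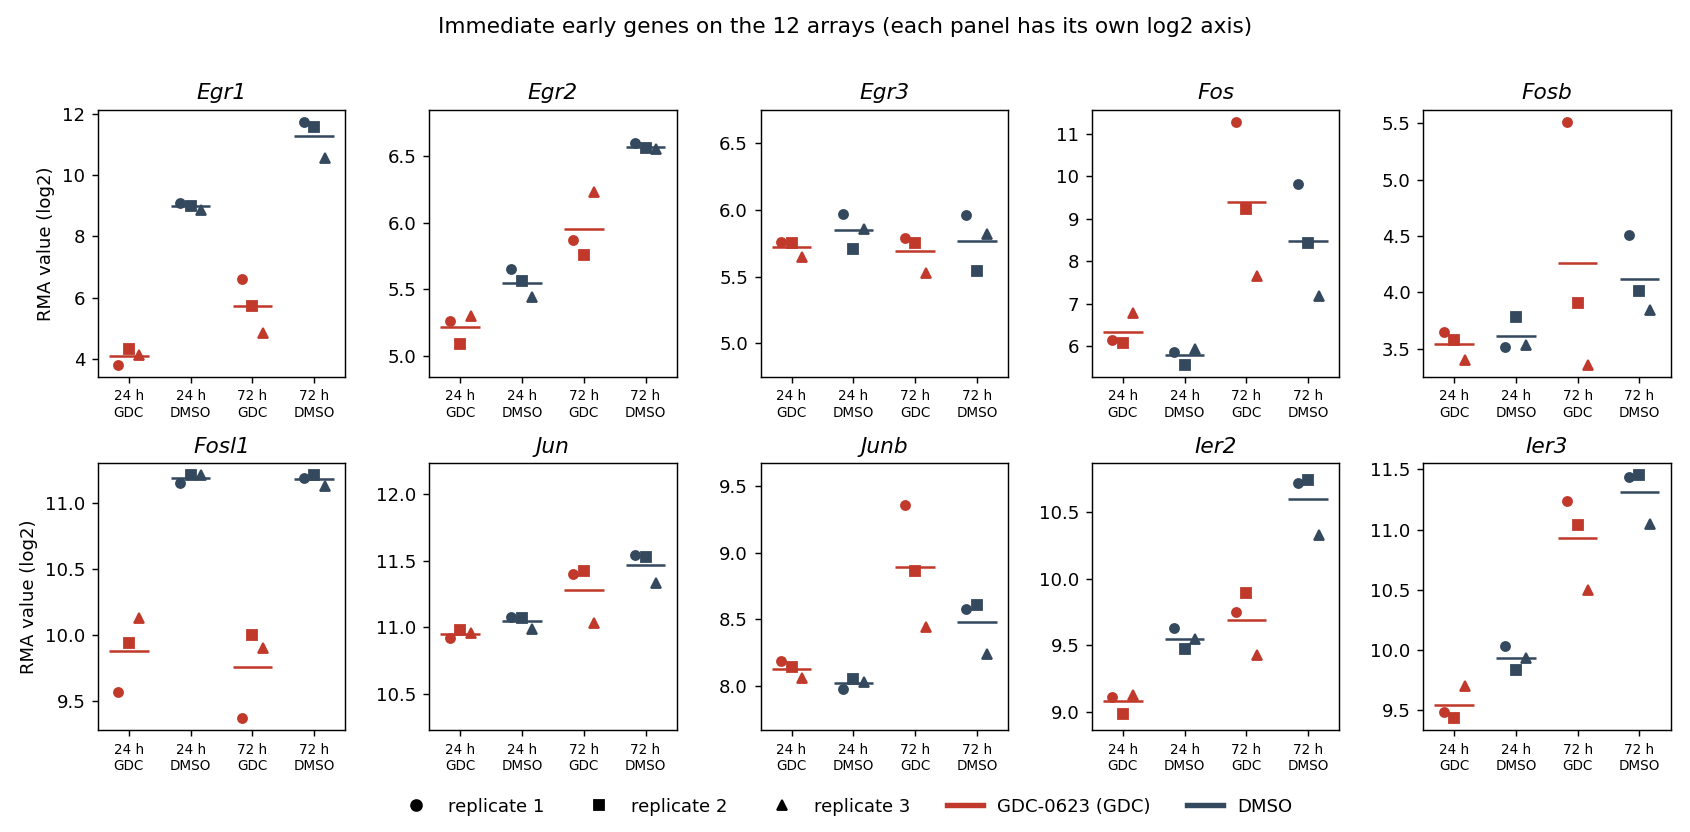
RMA values (y axis, log2, own scale in each panel) of the 10 genes on each array, by treatment and time (x axis). Symbols are the 3 replicates and bars are group means. Egr1 and Fosl1 separate by treatment at both times, with Egr1 at 4.08 in GDC-0623 and 8.98 in DMSO at 24 h, whereas Fos separates mainly by time.

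Among the EGR factors, Egr1 showed by far the greatest fall of the 10 genes. Its values after 24 h were 3.81, 4.31 and 4.13 in GDC-0623 and 9.09, 9.00 and 8.86 in DMSO. After 72 h they were 6.61, 5.73 and 4.83 in GDC-0623 and 11.74, 11.58 and 10.55 in DMSO. All inhibitor arrays lay far below all DMSO arrays of their time, and the 24 h inhibitor values were in the background range. Egr1 was 29.9-fold lower at 24 h (log2 fold change −4.90 ± 0.12 SE, limma adjusted p = 1.32e-07) and 47.4-fold lower at 72 h (−5.57 ± 0.43, adjusted p = 5.70e-05).

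Egr1 transcripts were nevertheless higher at 72 h than at 24 h within the inhibitor arrays, and the lowest 72 h inhibitor value, 4.83, exceeded the highest 24 h one, 4.31. The 72 h inhibitor mean of 5.72 ± 0.89 (SD, n = 3) still lay below the 24 h DMSO mean of 8.98 ± 0.12. The 72 h effect minus the 24 h effect was −0.67 ± 0.51 (95% interval −1.77 to 0.43) and did not pass the test (adjusted p = 0.612).

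Egr2, a factor of hindbrain and Schwann cell development that T cells also use, had much smaller changes. Its main probe set read 5.26, 5.09 and 5.30 in GDC-0623 and 5.65, 5.56 and 5.44 in DMSO at 24 h, all near the background range. After 72 h the values were 5.87, 5.76 and 6.23 in GDC-0623 and 6.60, 6.56 and 6.55 in DMSO. The groups did not overlap at either time, and Egr2 fell by 0.33 (± 0.09, adjusted p = 0.0255) at 24 h and by 0.62 (± 0.12, adjusted p = 0.00586) at 72 h. A second probe set gave −0.05 (± 0.13, adjusted p = 0.828) at 24 h and −0.76 (± 0.14, adjusted p = 0.00474) at 72 h, so only the 72 h fall was seen with both. The 24 h call of Egr2 was lost with 1 fit over all 12 arrays (adjusted p = 0.0517), with the mean of the probe sets (0.118), with each array shifted so that its hybridization control probe sets had an equal mean (0.38) and on leaving out DMSO replicate 1 or 2 or GDC-0623 replicate 1 or 2 (adjusted p between 0.0524 and 0.0941).

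Egr3, a relative of Egr2 that acts in muscle spindles and lymphocytes, gave different answers with its 2 probe sets. The probe set with the higher mean read 5.76, 5.75 and 5.65 in GDC-0623 and 5.97, 5.71 and 5.86 in DMSO at 24 h, with overlapping groups (−0.13 ± 0.08, adjusted p = 0.357). At 72 h it read 5.79, 5.75 and 5.53 in GDC-0623 and 5.96, 5.54 and 5.82 in DMSO, again overlapping (−0.08 ± 0.12, adjusted p = 0.705). The other probe set read 3.93, 4.76 and 4.59 in GDC-0623 and 5.62, 5.94 and 5.66 in DMSO at 24 h. It read 4.20, 4.39 and 4.54 in GDC-0623 and 5.99, 6.07 and 6.24 in DMSO at 72 h. Its inhibitor values were in the background range at both times, and all values of the first probe set were near that range. With the other probe set the groups were apart, with −1.31 ± 0.19 at 24 h (adjusted p = 0.00145) and −1.72 ± 0.11 at 72 h (adjusted p = 2.02e-05). The change assigned to Egr3 thus depends on the probe set.

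**Figure D2:**
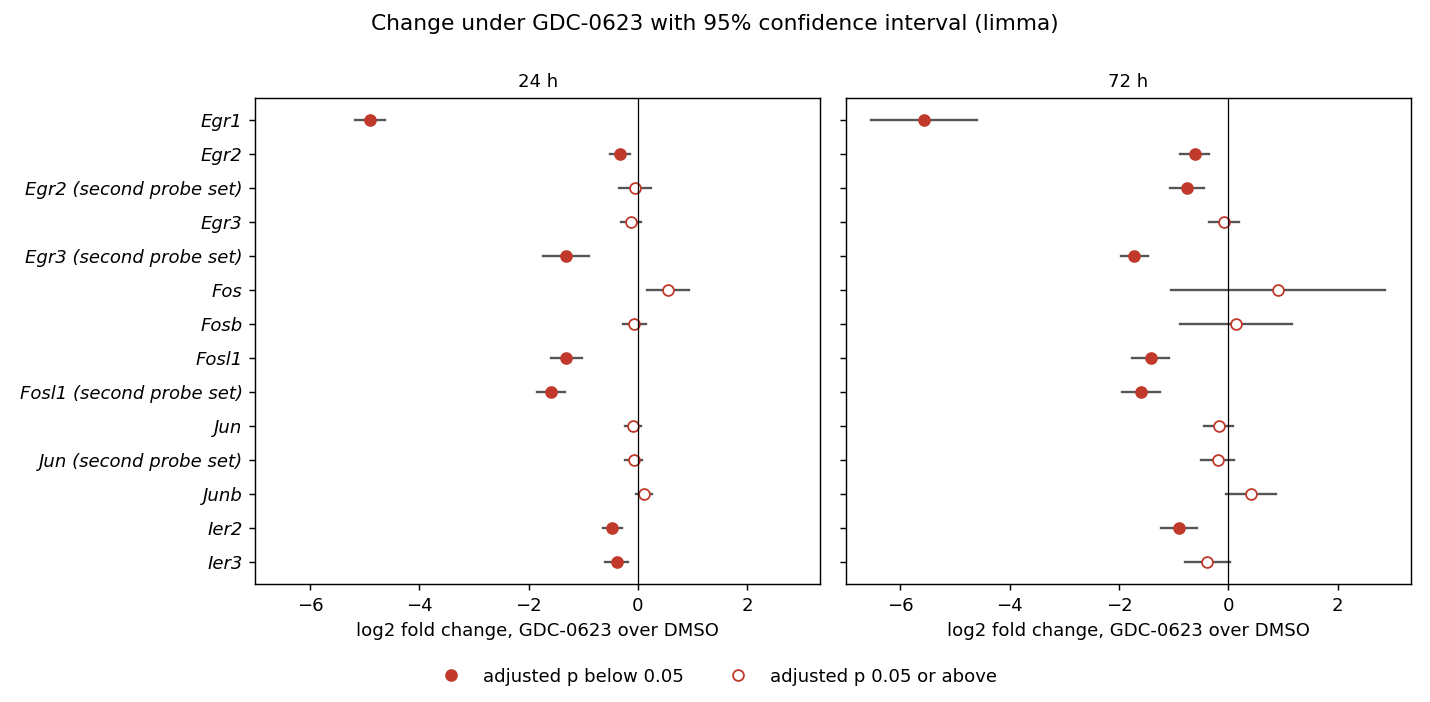
Log2 fold change of GDC-0623 over DMSO (x axis) for each probe set of the 10 genes (rows) at 24 h and 72 h, with 95% confidence intervals from limma on 6 arrays each. Filled points have an adjusted p below 0.05. Egr1 lies farthest to the left at both times, and the interval of Fos at 72 h spans −1.05 to 2.86.

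Of the FOS family members among the 10 genes, only Fosl1 passed the test against DMSO. Fosl1, which encodes FRA-1, an AP-1 subunit frequent in invasive carcinoma cells, read 9.57, 9.94 and 10.13 in GDC-0623 and 11.15, 11.21 and 11.21 in DMSO at 24 h. After 72 h, GDC-0623 replicates 1 and 3 read 9.37 and 9.90, against 11.19 and 11.13 in DMSO, and GDC-0623 replicate 2 differed by −1.21 from the 11.21 of DMSO replicate 2. The DMSO arrays were tightly grouped at both times and every inhibitor array was more than 1 log2 unit below them. Fosl1 was 2.48-fold lower at 24 h (−1.31 ± 0.13, adjusted p = 1.50e-04) and 2.68-fold lower at 72 h (−1.42 ± 0.15, adjusted p = 2.79e-04). Its second probe set fell by 1.59 (± 0.11) at 24 h and fell by 1.60 (± 0.15) at 72 h, and for the main probe set the effects at 72 h and 24 h differed by −0.11 (95% interval −0.57 to 0.35).

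Fos, which encodes the prototype FOS protein, was not lower under the inhibitor at either time. Its values were 6.15, 6.08 and 6.78 in GDC-0623 and 5.86, 5.57 and 5.93 in DMSO at 24 h. The inhibitor arrays all lay above the DMSO arrays, yet the difference of 0.55 ± 0.17 missed the threshold (adjusted p = 0.0609). With the replicate number as a block, it passed (adjusted p = 0.0175). At 72 h the values were 11.27, 9.22 and 7.64 in GDC-0623 and 9.81, 8.43 and 7.18 in DMSO, and the groups overlapped, both spreading widely. The difference was 0.90 ± 0.86 (adjusted p = 0.542). Between arrays of the same replicate number it was 1.46, 0.79 and 0.46, positive in 3 of 3, and the fit with the block gave 0.90 ± 0.17 (adjusted p = 0.009). Without GDC-0623 replicate 1 at 72 h the unblocked difference was −0.04.

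Fosb, a close relative of Fos, read 3.65, 3.58 and 3.40 in GDC-0623 and 3.52, 3.78 and 3.53 in DMSO at 24 h, all in the background range. Its 72 h values were 5.51, 3.91 and 3.36 in GDC-0623 and 4.51, 4.01 and 3.84 in DMSO, so a single inhibitor array rose clearly out of that range. The groups overlapped at both times (−0.07 ± 0.10, adjusted p = 0.704, and 0.14 ± 0.45, adjusted p = 0.879). Without that array the 72 h difference was −0.48.

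For the JUN family genes Jun and Junb, no change under the inhibitor passed the test. Jund, another gene of this family, was not a member of this list and is described with the related lists below. Jun, the main partner of FOS proteins, read 10.92, 10.98 and 10.96 in GDC-0623 and 11.08, 11.07 and 10.99 in DMSO at 24 h (−0.09 ± 0.07, adjusted p = 0.398), just apart. At 72 h the groups overlapped, with values of 11.40, 11.42 and 11.03 in GDC-0623 and of 11.54, 11.53 and 11.33 in DMSO (−0.18 ± 0.12, adjusted p = 0.345). These differences are small, with 95% intervals from −0.24 to 0.06 and from −0.45 to 0.08, and a second Jun probe set gave −0.08 and −0.20.

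Junb, whose protein often restrains JUN-driven growth, read 8.19, 8.14 and 8.06 in GDC-0623 and 7.98, 8.05 and 8.03 in DMSO at 24 h (0.11 ± 0.07, adjusted p = 0.332). Junb read 9.36, 8.86 and 8.44 in GDC-0623 and 8.58, 8.61 and 8.24 in DMSO at 72 h. The inhibitor array was the higher one at each replicate number, but the groups overlapped (0.41 ± 0.21, adjusted p = 0.216, and 0.0563 with the block). The 72 h difference was 0.17 (adjusted p = 0.532) without GDC-0623 replicate 1 and 0.63 (adjusted p = 0.0331) without GDC-0623 replicate 3.

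Of the immediate early response genes, Ier2 was called lower at both times and Ier3 at 24 h. Ier2 read 9.11, 8.99 and 9.13 in GDC-0623 and 9.63, 9.47 and 9.55 in DMSO at 24 h. At 72 h it read 9.75, 9.89 and 9.43 in GDC-0623 and 10.72, 10.74 and 10.33 in DMSO. The groups were apart at both times, and Ier2 fell by 0.47 (± 0.07, adjusted p = 0.00243) at 24 h and by 0.91 (± 0.14, adjusted p = 0.00243) at 72 h. With the shift by hybridization controls the 24 h call was lost (−0.32, adjusted p = 0.0614). The 72 h effect minus the 24 h effect was −0.43 ± 0.17, the only one of the 10 below 0.05 before adjustment, and it did not pass after it (limma adjusted p = 0.266).

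Ier3 read 9.48, 9.43 and 9.70 in GDC-0623 and 10.03, 9.83 and 9.93 in DMSO at 24 h, without overlap (−0.39 ± 0.09, adjusted p = 0.0163). At 72 h it read 11.24, 11.04 and 10.50 in GDC-0623 and 11.44, 11.45 and 11.05 in DMSO, where the highest inhibitor array exceeded the lowest DMSO array. The 72 h difference was of the same size but less precise (−0.39 ± 0.18, adjusted p = 0.193), and it passed with the replicate number as a block (± 0.09, adjusted p = 0.0257). Without GDC-0623 replicate 3 the unblocked 72 h difference was −0.17 (adjusted p = 0.473). The 24 h call was lost without DMSO replicate 1 or GDC-0623 replicate 1 or 2 (adjusted p between 0.0592 and 0.0633). That call was also lost with 1 fit over all 12 arrays (adjusted p = 0.126) and with the shift by hybridization controls (−0.24, adjusted p = 0.204).

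Over the 10 genes, no difference between the 72 h and the 24 h effect of GDC-0623 passed the test, where 1.46% of all genes were called lower and 1.62% higher for that contrast. Its median was −0.04 for the 10 genes and −0.01 for all genes. The intervals were wide for Fos (−1.84 to 2.55) and Fosb (−0.94 to 1.36). Differences between the times within these intervals could thus not be excluded for these genes with 3 arrays a group.

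The replicates at 72 h spread much more than those at 24 h for several of these genes, and they did so together. The SD of Fos at 72 h was 1.82 in GDC-0623 and 1.32 in DMSO, and 0% of all genes had a larger one in either group. Egr1 had an SD of 0.89 in GDC-0623, which 0.126% of genes exceeded, and 0.65 in DMSO, which 0.022% exceeded. Fosb had 1.12 in GDC-0623 and 0.35 in DMSO. The median SD over all genes was 0.11 in 72 h GDC-0623 and 0.08 in 72 h DMSO. At 24 h the SD of Fos was 0.39 in GDC-0623 and 0.19 in DMSO. Fosl1 had an SD of 0.34 in 72 h GDC-0623, which 3.11% of genes exceeded, and 0.04 in 72 h DMSO, which 79.8% exceeded. Egr2 had 0.25 in 72 h GDC-0623 (8.8% of genes larger) and 0.03 in 72 h DMSO (90.2% larger).

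Replicate 3 had the lowest 72 h value in both treatments for 7 of the 10 genes, namely Egr1, Fos, Fosb, Jun, Junb, Ier2 and Ier3, as it did for 10.1% of all genes. Replicate 1 had the highest 72 h value in both treatments for 4, Egr1, Egr3, Fos and Fosb, against 11.7% of all genes. At 24 h the same patterns held for 0 and for 1 of the 10 genes (9.22% and 14.6% of all genes). A list of 29 other immediate early genes had mean values of 9.03, 8.80 and 8.49 in the 72 h GDC-0623 replicates and 8.67, 8.61 and 8.32 in the 72 h DMSO replicates, so replicate 3 was the lowest there as well. The 7 heat shock genes, listed as signs of handling stress, did not share the order in DMSO, with means of 9.51, 9.44 and 9.38 in GDC-0623 and 9.42, 9.41 and 9.44 in DMSO. What set replicate 3 lower at 72 h was not tested.

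**Figure D3:**
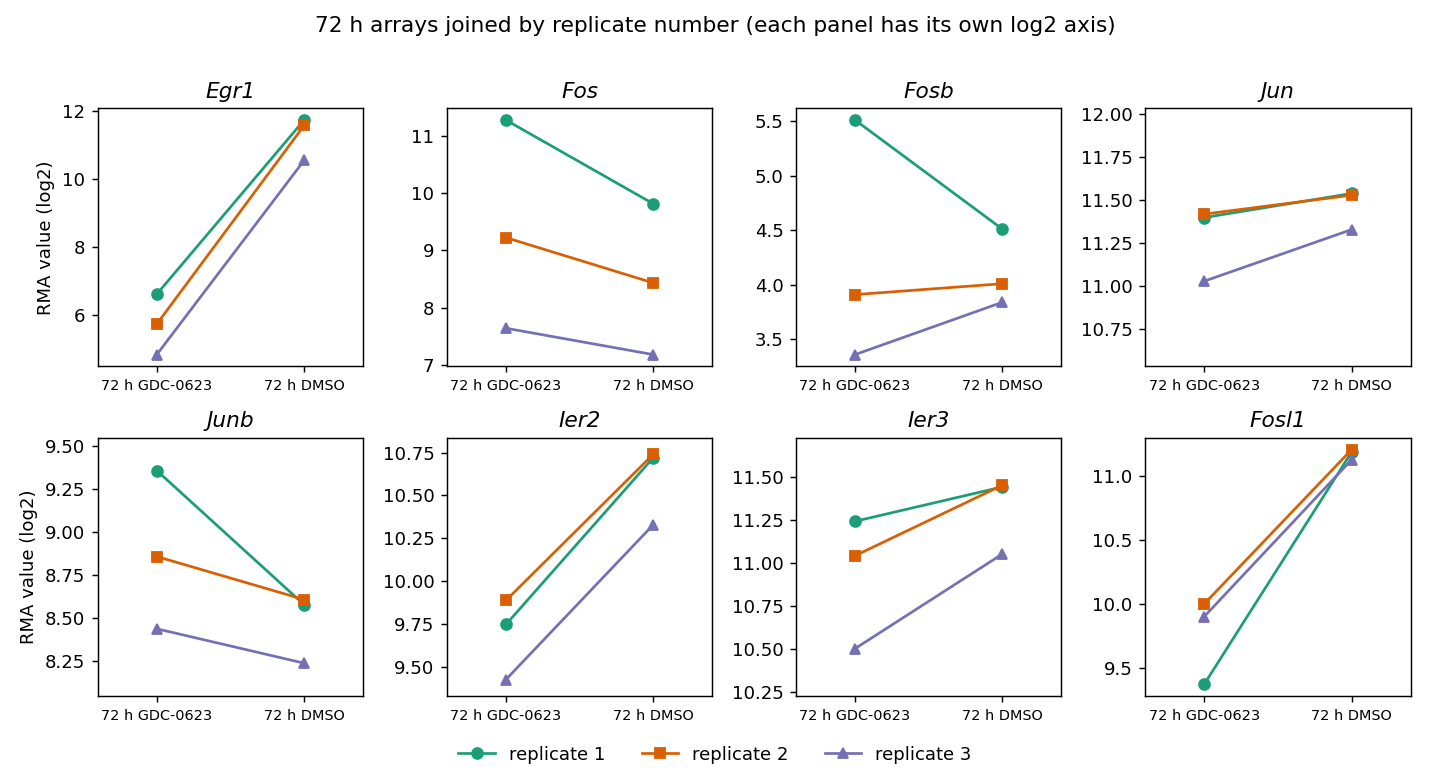
RMA values at 72 h (y axis, log2, own scale in each panel) in GDC-0623 and DMSO, with lines joining arrays of the same replicate number. Replicate 3 is the lowest in both treatments in 7 of the 8 panels, Fosl1 being the exception, and the Fos lines all slope the same way, with differences of 1.46, 0.79 and 0.46.

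With time in culture most of these genes were higher, with or without the inhibitor. Between 72 h and 24 h in GDC-0623, 6 of 10 genes were called higher and none lower, where 5.79% of all genes were called higher and 3.11% lower. In DMSO, 7 of 10 genes were called higher and none lower, where 8.41% of all genes were called higher and 5.14% lower. At an unadjusted p below 0.05, 7 genes passed in GDC-0623 and 8 in DMSO. The median change of the 10 genes was 0.73 in GDC-0623 and 0.77 in DMSO, where the median over all genes was −0.03 in GDC-0623 and −0.02 in DMSO. Cells were plated the day before the inhibitor or DMSO was added, so time under treatment and time since plating cannot be told apart. The time and the drug comparisons share arrays and are not independent of each other.

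Fos moved the most with time. It was 8.22-fold higher at 72 h than at 24 h in GDC-0623 (3.04 ± 0.71, adjusted p = 0.0337) and 6.44-fold higher in DMSO (2.69 ± 0.54, adjusted p = 0.016), with no overlap between times in either treatment. With the trended and robust prior neither passed (adjusted p = 0.133 in GDC-0623 and 0.0954 in DMSO). Egr1 rose by 1.64 (± 0.36, adjusted p = 0.0261) in GDC-0623 and by 2.31 (± 0.27, adjusted p = 0.00178) in DMSO. Ier3 rose by nearly the same amount in both, 1.39 ± 0.17 in GDC-0623 and 1.38 ± 0.11 in DMSO (adjusted p = 0.00159 and 3.54e-04). Ier2 rose by 0.61 ± 0.12 in GDC-0623 and 1.05 ± 0.11 in DMSO, and Egr2 by 0.74 ± 0.12 in GDC-0623 and 1.02 ± 0.07 in DMSO. The second Egr2 probe set rose by 0.99 in DMSO and gave 0.28 in GDC-0623 (adjusted p = 0.375).

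Junb rose by 0.76 ± 0.19 in GDC-0623 and 0.46 ± 0.10 in DMSO (adjusted p = 0.0439 and 0.0238). Jun gave 0.33 ± 0.11 in GDC-0623, which missed the threshold (adjusted p = 0.106), and rose by 0.42 ± 0.08 in DMSO (adjusted p = 0.0109). Fosb gave 0.72 ± 0.43 in GDC-0623 and 0.51 ± 0.16 in DMSO (adjusted p = 0.364 and 0.0855), and its DMSO groups did not overlap. Fosl1 did not pass in either treatment, with −0.12 (95% interval −0.53 to 0.29) in GDC-0623 and −0.01 (−0.15 to 0.12) in DMSO, and Egr3 gave −0.03 in GDC-0623 and −0.07 in DMSO. The count of 6 in GDC-0623 was 3 without 24 h replicate 1, 1 without 24 h replicate 2, 2 without 24 h replicate 3 and 3 without 72 h replicate 2. The calls lost were those of Fos and Egr1 (without any 24 h GDC-0623 array or 72 h replicate 2), of Junb (without any but 72 h replicate 3), of Ier2 (without 24 h replicate 2 or 3) and of Egr2 (without 24 h replicate 2). In DMSO the Fos call was lost without 24 h replicate 2 (adjusted p = 0.0611) and that of Junb without any array but 72 h replicate 3 (adjusted p between 0.0664 and 0.0813).

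**Figure D4:**
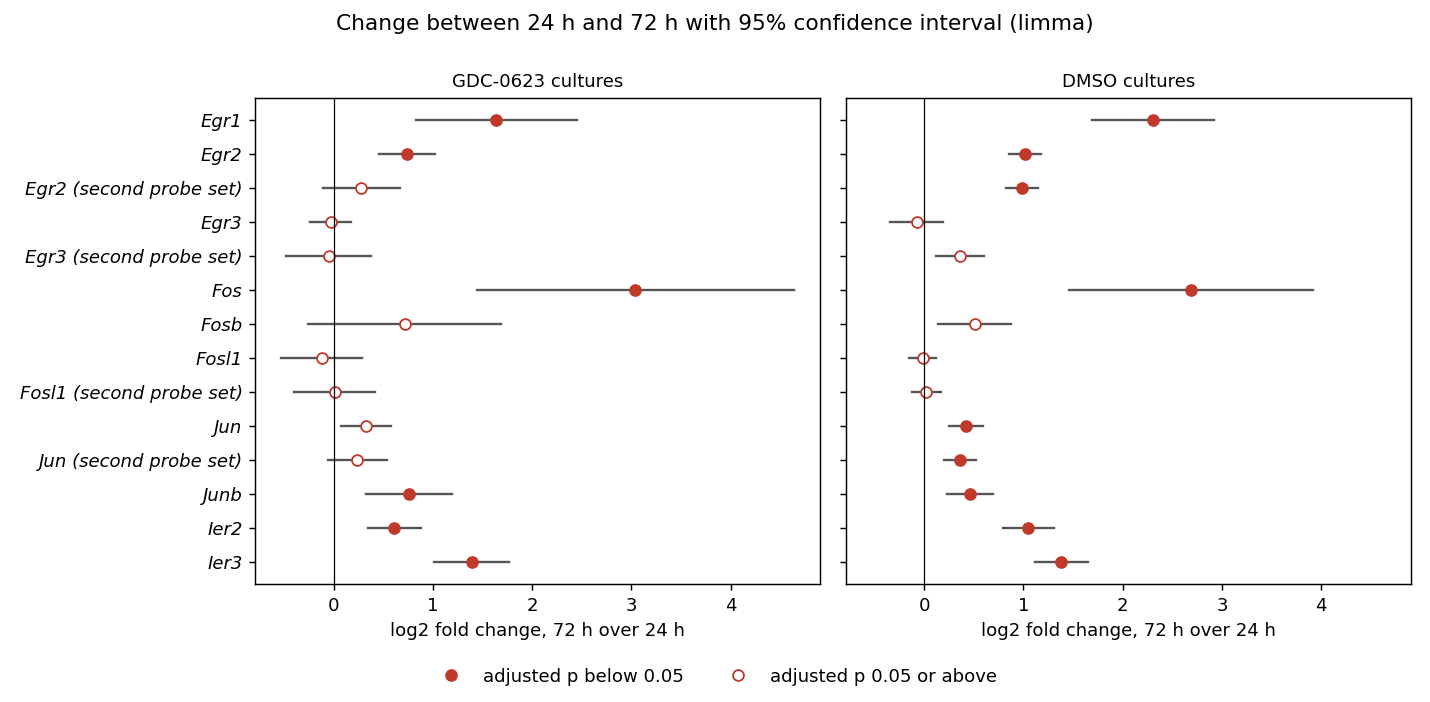
Log2 fold change of 72 h over 24 h (x axis) for each probe set of the 10 genes (rows) in GDC-0623 and in DMSO cultures, with 95% confidence intervals from limma on 6 arrays each. Filled points have an adjusted p below 0.05. Fos, Egr1 and Ier3 lie to the right in both, and the main probe sets of Fosl1 and Egr3 lie near 0.

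By group means, the 4 conditions of Egr1 ran from 4.08 (24 h GDC-0623) through 5.72 (72 h GDC-0623) and 8.98 (24 h DMSO) to 11.29 (72 h DMSO), and each neighbouring pair was apart without overlap. Fosl1 had 2 levels, with 9.76 ± 0.34 in 72 h GDC-0623 and 9.88 ± 0.28 in 24 h GDC-0623, and with 11.18 ± 0.04 in 72 h DMSO and 11.19 ± 0.03 in 24 h DMSO (SD, n = 3 each), and the times did not differ beyond the spread. Fos was highest in 72 h GDC-0623 (mean 9.38), then in 72 h DMSO (8.47), 24 h GDC-0623 (6.34) and 24 h DMSO (5.79), and the 2 highest groups overlapped.

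Genes whose pattern was most like that of a member were found by the root mean square difference over the 12 arrays, with each gene set relative to its own 24 h DMSO mean and genes averaging at least 6 considered. The nearest to Fosl1 were Gsdme, which encodes a pore-forming gasdermin (0.11 log2 units), the urokinase receptor gene Plaur (0.14) and the kinase gene Dyrk3 (0.15). The nearest to Egr1 were the ETS factor gene Etv5 (1.41), the uridine phosphorylase gene Upp1 (1.88) and the ERK phosphatase gene Dusp4 (1.92). Fos was nearest to the chemokine gene Ccl5 (0.93), the desaturase gene Fads2 (1.06) and Atf3 (1.10). Fosb was nearest to Junb (0.33) and Ier2 to the clock gene Ciart (0.15).

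Of 11 other AP-1 and small Maf factors, 4 rose and 1 fell at 24 h and 2 rose and 3 fell at 72 h. For these and the lists that follow, the shares over all genes were 13.3% higher and 8.23% lower at 24 h and 13.8% higher and 12.4% lower at 72 h, so counts such as 2 of 11 higher at 72 h are near them. Jund, which encodes the growth-restraining JUN protein, averaged 10.52 ± 0.20 in GDC-0623 and 9.03 ± 0.11 in DMSO at 24 h (1.50 ± 0.11, adjusted p = 3.22e-05), and rose by 0.79 ± 0.10 at 72 h. The effect on Jund was smaller at 72 h (difference −0.70 ± 0.15, adjusted p = 0.0295). Fosl2, which encodes FRA-2, rose by 1.04 (± 0.09, adjusted p = 1.07e-04) at 24 h and by 0.98 (± 0.15, adjusted p = 0.00191) at 72 h. Atf3, a stress-induced partner of JUN, rose by 1.31 (± 0.13, adjusted p = 1.77e-04) at 24 h and gave 0.13 ± 0.34 at 72 h (adjusted p = 0.85), while the difference between the times did not pass (adjusted p = 0.187). Maff, a small Maf factor without an activation domain, fell by 1.04 (± 0.07) at 24 h and fell by 0.74 (± 0.14) at 72 h. Mafg, another of that family, gave −0.22 ± 0.09 at 24 h (adjusted p = 0.131) and fell by 0.34 (± 0.09, adjusted p = 0.0335) at 72 h. Batf3, also counted lower at 72 h, had means of 4.36 in GDC-0623 and 4.98 in DMSO, in the background range.

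Of 3 other EGR factors and corepressors, Nab2, which binds and restrains EGR proteins, fell by 0.24 (± 0.07, adjusted p = 0.0412) at 24 h, and none was called at 72 h. Among 13 genes listed for SRF, its cofactors and the upstream kinases, 9 were measured, with 3 higher and 1 lower at 24 h and 1 higher and 1 lower at 72 h, the 72 h counts being near the shares over all genes. Mrtfb, an SRF coactivator gene, rose by 0.48 (± 0.09) at 24 h and by 0.45 (± 0.11) at 72 h. Elk1 rose by 0.44 (± 0.07, adjusted p = 0.00317) at 24 h, while Elk3, a ternary complex factor that can repress, fell by 0.31 (± 0.07, adjusted p = 0.0135). The kinase gene Rps6ka3 rose by 0.28 (± 0.08) at 24 h, and Creb1 fell by 0.30 (± 0.07) at 72 h. Srf itself gave 0.03 and −0.03.

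Of 29 other immediate early genes, 8 rose and 5 fell at 24 h and 8 rose and 4 fell at 72 h, with medians of 0.15 and 0.23. The counts include Arc at 24 h (means 3.46 in GDC-0623 and 3.76 in DMSO) and Gem at 72 h (3.34 and 2.74). These means lie in or below the background range. Dusp1, a phosphatase gene acting on JNK, p38 and ERK, averaged 9.58 in GDC-0623 and 7.64 in DMSO at 24 h and rose by 1.94 (± 0.08, adjusted p = 3.00e-06) and by 2.06 (± 0.40, adjusted p = 0.00647) at 72 h. Hbegf, an EGF receptor ligand gene, averaged 6.18 in GDC-0623 and 8.18 in DMSO at 24 h. It fell by 2.00 (± 0.12) at 24 h and fell by 1.97 (± 0.15) at 72 h. Tnfaip3, a feedback inhibitor of NF-kappaB, rose by 0.81 (± 0.08) at 24 h and by 1.93 (± 0.16) at 72 h, and here the effects differed (1.12 ± 0.19, adjusted p = 0.0061). The GTPase gene Rhob rose by 1.14 (± 0.09, adjusted p = 4.06e-05) at 24 h, with 0.47 ± 0.16 at 72 h (adjusted p = 0.0753). The kinase gene Sgk1 fell by 1.16 (± 0.10) at 24 h and fell by 0.99 (± 0.23) at 72 h.

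Of 14 listed AP-1 target genes 12 were measured, of which 5 fell and none rose at each time. The counts include Mmp3 at both times and Mmp10 at 72 h, whose group means of 4.20 to 5.05 lie in or near the background range. Plaur averaged 7.98 in GDC-0623 and 9.22 in DMSO at 24 h and fell by 1.24 (± 0.13, adjusted p = 3.07e-04) and by 1.61 (± 0.14, adjusted p = 9.67e-05) at 72 h. The cyclin D1 gene Ccnd1 fell by 0.66 (± 0.13) at 24 h and fell by 0.65 (± 0.19) at 72 h. Vegfa, an angiogenic factor gene, fell by 0.44 (± 0.09) at 24 h and fell by 0.48 (± 0.09) at 72 h. The hyaluronan receptor gene Cd44 fell by 0.31 (± 0.07) at 24 h, gave 0.24 ± 0.09 at 72 h (adjusted p = 0.0904), and its effects differed by 0.55 ± 0.11 (adjusted p = 0.0188). Of 7 heat shock genes, 3 fell at 24 h, and 2 fell and 1 rose at 72 h. Hspe1, a mitochondrial chaperonin gene, fell by 0.28 (± 0.07) at 24 h and fell by 0.34 (± 0.08) at 72 h. Its partner Hspd1 fell by 0.27 (± 0.07) at 24 h and fell by 0.38 (± 0.09) at 72 h. The cytosolic Hsph1 fell by 0.34 (± 0.07) at 24 h and Dnajb1 rose by 0.27 (± 0.07) at 72 h.

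**Figure D5:**
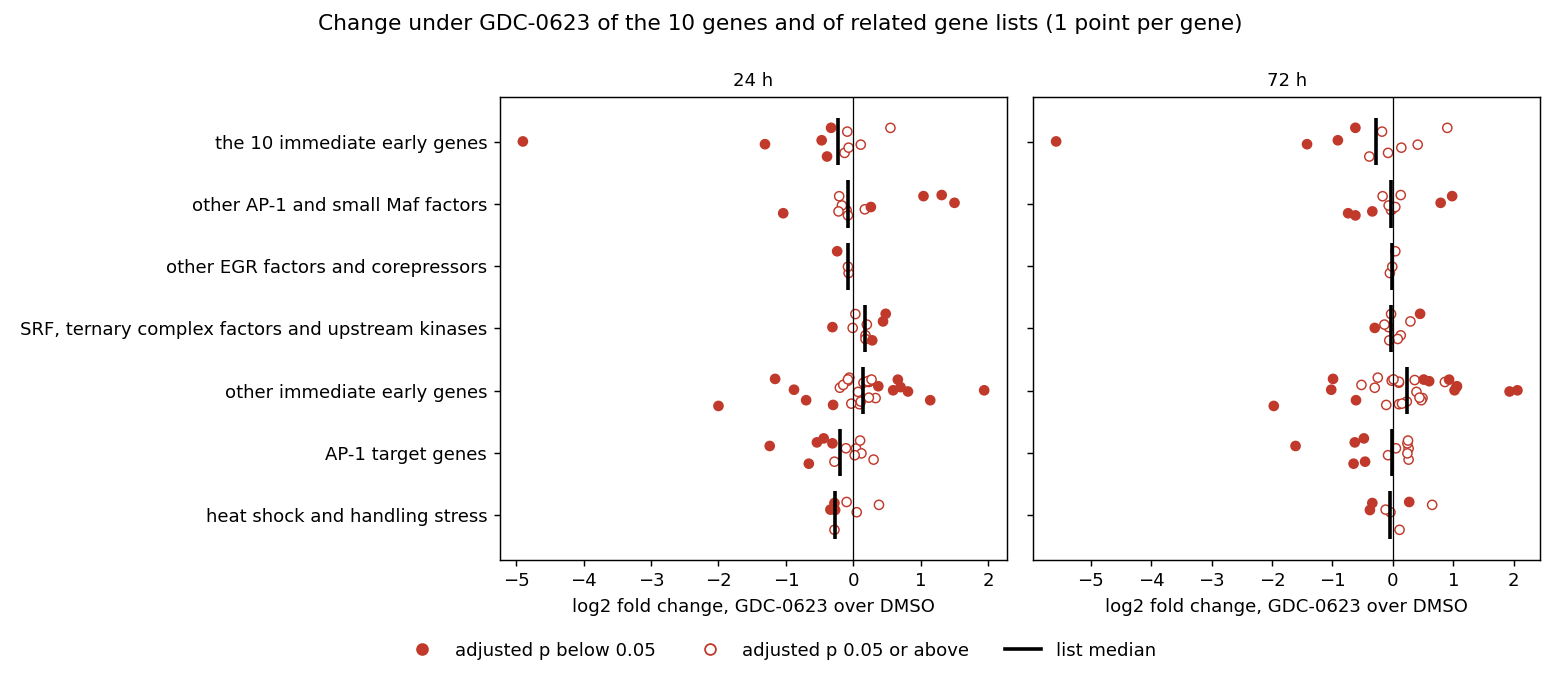
Log2 fold change of GDC-0623 over DMSO (x axis) at 24 h and 72 h, with 1 point per gene, for the 10 genes and 6 related lists (rows). Filled points have an adjusted p below 0.05 and black bars are list medians. The 10 genes have medians of −0.23 and −0.29, with Egr1 far to the left, and the 29 other immediate early genes have medians of 0.15 and 0.23.

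Over time in culture, 10 of the 29 other immediate early genes rose and 1 fell in GDC-0623, and 9 rose and 1 fell in DMSO. The 10 include Gem, whose GDC-0623 means of 2.81 at 24 h and 3.34 at 72 h lie in or below the background range. Of the 11 other AP-1 and small Maf factors, 1 rose in GDC-0623, and 5 rose and 1 fell in DMSO. Over all genes, 5.79% were called higher and 3.11% lower in GDC-0623, and 8.41% higher and 5.14% lower in DMSO, so the 1 of 11 in GDC-0623 is near that share. The AP-1 target list had 2 higher and none lower in GDC-0623, and 2 higher and 1 lower in DMSO. Of the 7 heat shock genes, none was higher in either treatment, and 1 was lower in GDC-0623 and 3 in DMSO.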

How the data were processed

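MC38 RNA was amplified from the 3 prime end with biotin labelling and hybridised to 12 one-colour Affymetrix mouse arrays. The authors deposited log2 values, made by robust multichip averaging (RMA), which corrects background, quantile normalises and summarises probes, and removes shifts shared by most genes. The RMA version is not given in the sources used here. Of 45101 probe sets, 64 controls were left out. Probe sets were named through the platform annotation with updated symbols. For each gene, the single-symbol probe set with the highest mean over 12 arrays was used, and its other probe sets were reported.

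Groups were compared with limma 3.58.1 (lmFit, eBayes, two-sided) in R 4.3.3 on the 6 arrays concerned, or on all 12 for the difference of effects. Benjamini-Hochberg adjustment ran over 45037 probe sets, and an adjusted p below 0.05 was called. All adjusted p-values are from limma. Errors are standard errors of the fit unless an SD is named. The code was tested on simulated data with known changes. The number of arrays limits the precision, and p-values measure the spread between these replicates.

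The genes and lists were chosen with earlier results of these data known. From each list up to 5 genes were named, by the largest change, from called genes with no overlap of the groups and a higher mean of at least 6. Genes outside this rule (Srf, the markers and the dim genes Mmp3, Mmp10, Arc, Gem and Batf3) are named as list members. Listed genes with no single-symbol probe set were not analysed here.

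Groups share replicate numbers in the labels. Deviations of same-numbered arrays from their group means had positive correlations in all 12 pairs of the 4 comparisons, though several were very weak over all probe sets. Over probe sets with a mean of at least 6 they ran from 0.12 to 0.56, and over all probe sets from 0.01 to 0.29. Different-numbered arrays gave −0.47 to 0.22 over the probe sets with a mean of at least 6 and −0.24 to 0.11 over all probe sets. Both ranges overlap the same-numbered ones. The numbers were taken to pair the arrays, a decision that rests on the data and not on the labels. The main fits did not include this pairing, which entered only through the replicate block. Alternatives were 1 fit over 12 arrays, the replicate block, a filter on dim probe sets (at least 5 on 3 arrays), repeated quantile normalization, a shift by hybridization controls, a trended and robust prior, array weights, a minimum fold of 2, the mean of a gene's probe sets and leaving out each array. Figures were drawn with matplotlib 3.10.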

Additional observations from a re-analysis of the deposited data

How the results depend on the processing

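Of 745 values of the 10 genes under alternatives, 657 kept their direction and their side of the threshold, 38 lost it, 15 gained it and 35 changed sign, and the cause was not tested for any of them. The calls of Egr1 and Fosl1 against DMSO at both times held under every alternative run, and those of Egr2 and Ier2 at 72 h under every one except the minimum fold of 2. At 24 h the count of 5 lower was 3 with 1 fit over all 12 arrays, 2 with the shift by hybridization controls and 2 with a minimum fold of 2. With any array left out it ranged from 3 to 5, being 3 without DMSO replicate 1 or GDC-0623 replicate 1 or 2. The count of 0 higher at 24 h was 1, Fos, with the replicate block, the filter on dim probe sets, the shift by hybridization controls or the trended and robust prior, and from 0 to 1 with an array left out. At 72 h the count of 4 lower was 2 with a minimum fold of 2, and the count of 0 higher was 1 with the replicate block (Fos) and from 0 to 1 with an array left out (Junb without GDC-0623 replicate 3). In GDC-0623 over time the count of 6 higher was 3 with a minimum fold of 2 and from 1 to 7 with an array left out. The replicate block changed 3 calls of these genes, Fos at 24 h and Fos and Ier3 at 72 h, and no other.

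Every change of sign was in a value that had not passed the test. With the shift by hybridization controls, the 24 h values were 0.02 for Egr3, 0.08 for Fosb and 0.06 for Jun, the differences of the effects were −0.10 for Egr3 and −0.13 for Ier3, and Fosl1 over time in DMSO was 0.02. With array weights, Fosb was −0.14 at 72 h, and the differences of the effects were −0.04 for Fos, −0.09 for Fosb and −0.04 for Ier3. With the mean of a gene's probe sets, the difference for Egr3 was −0.18 and its change over time in DMSO 0.14, and Egr3 passed the test at 24 h (−0.72) and 72 h (−0.90). With each array left out in turn, the 24 h value of Fosb ranged from −0.12 to 0.02, and the 72 h values ranged from −0.20 to 0.01 for Egr3, from −0.04 to 1.77 for Fos and from −0.48 to 0.59 for Fosb. The differences of the effects ranged from −0.07 to 0.14 for Egr3, −0.59 to 1.22 for Fos, −0.42 to 0.66 for Fosb, −0.27 to 0.08 for Fosl1, −0.16 to 0.04 for Jun and −0.15 to 0.22 for Ier3. Over time, they ranged from −0.17 to 0.04 for Egr3 and −0.03 to 0.01 for Fosl1 in DMSO, and from −0.08 to 0.05 for Egr3 and −0.28 to 0.07 for Fosl1 in GDC-0623.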
